A study of Mus musculus with 10 samples.

Results

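The CpG sites described here were fully methylated in the spermatozoa of control mice. They were chosen by a fixed threshold: autosomal CpG sites, both strands summed, with at least 20 reads in each of 10 animals, at which 95% or more of the pooled reads of the 4 vehicle-control animals C14, C8, F3C30 and F3C9 were methylated. Of 628550 CpG sites with that coverage, 55179 (8.78%) passed. Because the vehicle-control animals chose the sites, their own levels at these 55179 CpG sites are a description, and no vehicle against decitabine difference over them was tested. Tests were made only on CpG sites selected on other animals.

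DNA was taken from spermatozoa of C57Bl/6 mice and read by reduced representation bisulfite sequencing (RRBS), in which DNA is cut with the enzyme MspI at CCGG, short fragments are kept, and bisulfite turns unmethylated cytosines into uracil, which is read as thymine. In the P-generation, 2 control males (C14 and C8) were injected with the vehicle, 7.5% DMSO, and 3 males (D10, D11 and D13) with decitabine at 0.1 µg per g body weight in DMSO. Injections began at the age of 7 weeks and were given 3 times weekly over 7 weeks. The F3-generation males were not treated. All were analysed at 14 to 15 weeks. F3C30 descended from C14 and F3C9 from C8, F3D1 and F3D31 both descended from D10, and F3D7 from D11, so that D13 has no descendant here and F3D1 and F3D31 share an ancestor. In all, there were 2 vehicle-control and 3 decitabine animals in each generation, and each animal was 1 library. Spermatozoa were prepared from minced whole epididymides, a preparation that can carry somatic cells. The study filtered the suspension and measured purity by flow cytometry in randomly chosen P-generation samples. It reported that most cells were sperm, with nearly the same share in each treatment group.

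A CpG is a palindrome, so a methylated site carries a methyl group on each strand. At replication, the maintenance enzyme DNMT1, brought to the hemimethylated site by UHRF1, restores the methyl group on the new strand. Decitabine is a cytidine analogue that is built into DNA and traps DNA methyltransferases, so that methylation can be lost in dividing cells. In the male germ line, methylation is set before birth by the de novo enzyme DNMT3A with its cofactor DNMT3L and then has to be maintained through the divisions of spermatogonia. A loss is given throughout as the unmethylated percentage, the unmethylated reads of a CpG site as a percentage of its reads in an animal. The level of an animal is the mean of this percentage over the CpG sites.

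The sequences of 3 sets of CpG sites are shown because the results turn on them. All are plus-strand sequences of GRCm38 (mm10), each CpG is in capitals, and for the single CpG sites the one described stands in the middle with 30 bases before it. The first set, named P1 to P10, was drawn from CpG sites that were fully methylated in the 2 F3 vehicle-control animals. These sites were called lower in the decitabine treated animals, with all 3 below both P vehicle-control animals. The set holds the 10 with the largest loss. Of these, 9 are among the 55179 CpG sites. P8 is not, since 92.0% of the pooled reads of all 4 vehicle-control animals were methylated there.
P1, Zfp628, chr7:4919180-4919241: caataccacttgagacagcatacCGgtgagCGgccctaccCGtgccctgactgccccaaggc
P2, Relch, chr1:105729427-105729488: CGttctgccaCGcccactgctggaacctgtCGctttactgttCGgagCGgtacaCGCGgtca
P3, Fiz1, chr7:5008578-5008639: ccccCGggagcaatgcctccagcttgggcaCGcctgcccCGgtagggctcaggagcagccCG
P4, Pskh1, chr8:105913011-105913072: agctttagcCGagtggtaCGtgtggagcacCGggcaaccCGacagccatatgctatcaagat
P5, Bahcc1, chr11:120287297-120287358: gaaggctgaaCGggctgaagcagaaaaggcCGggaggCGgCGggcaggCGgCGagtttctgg
P6, intergenic, chr2:28425257-28425318: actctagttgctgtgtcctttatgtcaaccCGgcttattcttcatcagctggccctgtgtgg
P7, Zfp319, chr8:95328953-95329014: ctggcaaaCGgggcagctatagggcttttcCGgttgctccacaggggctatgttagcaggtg
P8, Angptl2/Ralgps1, chr2:33236095-33236156: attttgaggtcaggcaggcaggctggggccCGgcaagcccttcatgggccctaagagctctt
P9, Nr1h2, chr7:44551555-44551616: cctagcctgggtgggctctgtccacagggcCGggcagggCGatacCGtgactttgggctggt
P10, intergenic, chr9:15552535-15552596: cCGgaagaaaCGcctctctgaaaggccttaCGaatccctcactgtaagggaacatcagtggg

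The second set holds CpG sites that stayed methylated in every read of every animal, chosen for their read number.
site 1, intergenic, chr15:59766671-59766732: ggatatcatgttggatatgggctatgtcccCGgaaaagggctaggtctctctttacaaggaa
site 2, Slc25a26, chr6:94560027-94560088: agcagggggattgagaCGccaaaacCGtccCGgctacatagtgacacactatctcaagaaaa
site 5, Rgs20, chr1:4987950-4988011: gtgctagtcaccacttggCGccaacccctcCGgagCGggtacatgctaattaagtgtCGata

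The third set holds stretches in which 12 and 10 neighbouring tested CpG sites were all fully methylated. All CpGs from the first to the last site of run 1 were tested, whereas run 5 also spans 4 CpGs that were not.
run 1, Sec1, chr7:45679192-45679442: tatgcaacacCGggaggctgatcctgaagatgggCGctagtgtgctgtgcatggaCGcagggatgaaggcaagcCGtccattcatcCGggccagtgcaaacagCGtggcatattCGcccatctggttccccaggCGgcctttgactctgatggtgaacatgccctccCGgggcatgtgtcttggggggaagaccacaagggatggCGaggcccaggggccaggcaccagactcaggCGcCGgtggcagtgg
run 5, Dyrk3, chr1:131129586-131129844: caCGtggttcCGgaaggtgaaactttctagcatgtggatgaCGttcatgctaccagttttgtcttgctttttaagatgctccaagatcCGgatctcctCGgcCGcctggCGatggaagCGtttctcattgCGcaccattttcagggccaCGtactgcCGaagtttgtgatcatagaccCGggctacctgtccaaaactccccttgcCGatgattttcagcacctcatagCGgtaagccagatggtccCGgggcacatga

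The fully methylated CpG sites lay away from gene starts. Their median distance to the nearest annotated transcript start was 14086 bases, against 399 bases for all tested CpG sites. The region around them was poor in CpGs, with a median of 5 CpGs in a window of 202 bases, where all tested CpG sites had 18. Within 500 bases of a start, 1250 of 343408 tested CpG sites (0.364%) were fully methylated, and beyond 10000 bases 33368 of 116862 (28.6%) were. Among gene parts, 5′ UTRs had the lowest share, with 106 of 120042 (0.0883%), and 3′ UTRs the highest, with 1359 of 7212 (18.8%). Of the fully methylated CpG sites, 43.7% lay in introns, 31.1% between genes and 21.0% in coding exons. The share of tested CpG sites that were fully methylated was similar across the 19 autosomes, from 7.27% on chromosome 19 to 9.49% on chromosome 15. Soft-masked repeats held 19.3% of them and 6.78% of all tested CpG sites. The MspI site itself held 62.2% of them and 32.4% of all tested CpG sites.

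Inside genes, 37879 fully methylated CpG sites lay in 8866 genes, counting an overlap of genes as a gene of its own. The genes with the highest numbers were as follows. Gm20388, a gene model on chromosome 8 that spans several others, held 144 of its 1278 tested CpG sites and a further 55 where it overlaps Gse1. Wwox, which encodes an oxidoreductase at a fragile site, held 80 of 196, and Camta1, a calmodulin-binding transcription activator, 61 of 462. The muscle gene Ttn, for titin, held 57 of 82. The cytoskeletal linker Plec and the synaptic scaffold Shank2 held 51 each, and the transcription factor Cux2 and the lipoprotein receptor Lrp1 46 each. In the 6 decitabine animals, which took no part in the choice, the level over the sites in Plec was 2.12% in D10, 2.63% in D11, 2.67% in D13, 2.35% in F3D1, 1.90% in F3D31 and 1.795% in F3D7. In Cux2 the same animals had 4.14%, 4.20%, 3.99%, 4.22%, 4.10% and 2.96%, so that the ranges of Plec and Cux2 did not overlap. The range of Ttn, from 2.19% in F3D7 to 4.44% in D11, overlapped both. Differences between genes were not tested.

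Over the 55179 CpG sites, the treated animals had a level of 4.16% (D10), 4.43% (D11) and 3.82% (D13). Their descendants had 3.45% in F3D1, 3.36% in F3D31 and 3.19% in F3D7. The vehicle-control animals that chose the sites had 2.71% in C14, 1.38% in C8, 2.61% in F3C30 and 2.13% in F3C9. All decitabine animals were above all vehicle-control animals, by 2.09 percentage points between the group means in the P-generation and 0.964 in the F3-generation. The vehicle-control animals were low here by construction, since their reads chose the sites. Just inside the threshold, at the 4215 CpG sites with 95 to 95.5% methylated vehicle reads, D10 had 6.06% and F3D1 4.93%. Just outside it, at the 3975 CpG sites with 94.5 to 95%, these animals had 6.47% and 5.19%.

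Each vehicle-control animal had a higher level when it was left out of the choice. C8 rose from 1.38% to 4.52% over the 57500 CpG sites selected without it, and then only 1 of the 3 decitabine treated animals was above it. The mean of the decitabine treated animals over these sites was 4.23% ± 0.34 (SD, n = 3), a difference of -0.288 percentage points from C8. C14 rose from 2.71% to 3.39% over the 54695 CpG sites selected without it, with all 3 decitabine treated animals above it and their mean 0.991 percentage points higher. C14 thus lay below all decitabine treated animals and C8 within their range but above their mean, and the average of both differences was 0.352 percentage points. In the F3-generation, F3C30 rose from 2.61% to 3.49%, within 0.026 percentage points of the mean of the decitabine descendants, of which 2 were above it. F3C9 rose from 2.13% to 3.91%, above all 3 descendants, whose mean differed from it by -0.433 percentage points. The average of both F3 differences was -0.204 percentage points.

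To test the loss with both control animals of a generation unused, CpG sites were selected on the 2 vehicle-control animals of the other generation only. For the P-generation this gave 57274 CpG sites, at which the level was 3.51% in C14, 4.88% in C8, 4.64% in D10, 4.93% in D11 and 4.19% in D13. C8 lay among the highest and C14 below all others, so that the groups overlapped. The mean was 4.59% ± 0.37 (SD, n = 3) after decitabine and 4.20% ± 0.96 (SD, n = 2) after vehicle, a difference of 0.389 percentage points that was smaller than the spread between the control animals (exact permutation test, two-sided, p = 0.6). For the F3-generation it gave 59654 CpG sites, at which the level was 3.77% in F3C30, 4.26% in F3C9, 3.93% in F3D1, 3.82% in F3D31 and 3.64% in F3D7. The decitabine descendants had 3.80% ± 0.15 (SD, n = 3) and the vehicle descendants 4.01% ± 0.35 (SD, n = 2), which is -0.216 percentage points relative to the vehicle descendants (two-sided exact permutation test, p = 0.5). With 2 animals against 3 this test cannot give a p below 0.1. It also does not take descent into account. The animals that chose the sites are direct relatives of the control animals tested, F3C30 of C14 and F3C9 of C8. By the stated descent they are not direct relatives of the decitabine animals. Which control animal was used decided the sign: without C14 the P-generation difference was -0.292 and without C8 1.07 percentage points, and without F3C9 the F3 difference was 0.0282 and without F3C30 -0.460.

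**Figure D1:**
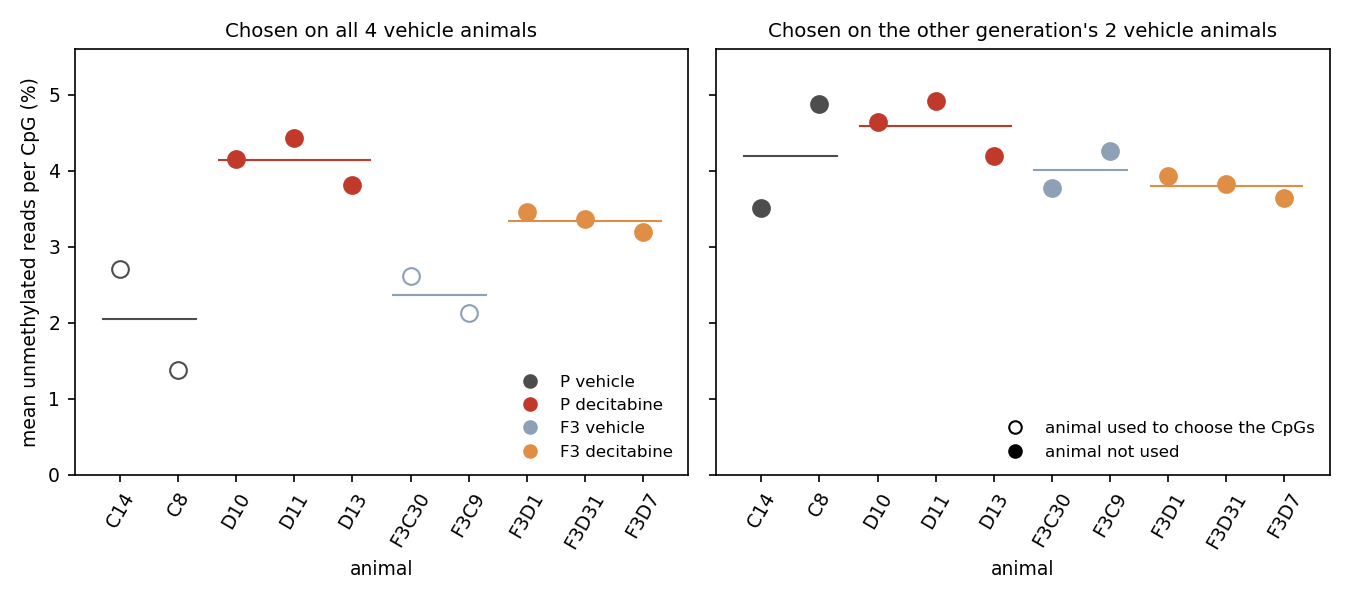
Mean unmethylated percentage per animal over fully methylated CpG sites. On the left the sites were selected on all 4 vehicle-control animals (open circles, 1.38 to 2.71%), and on the right on the vehicle-control animals of the other generation, 57274 sites for P and 59654 for F3, where C8 (4.88%) lies among the decitabine treated animals (4.19 to 4.93%). Lines are group means.

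C8 had many sites without loss and also many with a clear loss. Of the 57274 CpG sites selected on the F3 vehicle-control animals, C8 had no unmethylated read at 68.9%, the highest share of the P-generation, where the others had between 29.7% (C14) and 48.0% (D13). C8 nevertheless had the highest share of sites with a clear loss, defined as 20% or more unmethylated reads: 5254 CpG sites (9.17%), and at 352 of them at least 50%. The reads carry no molecular identifiers, so the number of distinct molecules behind this share is not known, and its part in the share, also after thinning, was not tested. The corresponding counts were 256 (0.447%) in C14, 1401 (2.45%) in D10, 2068 (3.61%) in D11 and 1612 (2.81%) in D13. All 3 decitabine treated animals thus had more such sites than C14 and fewer than C8. F3C9, the descendant of C8, likewise had the highest share without an unmethylated read in the F3-generation, with 48.6% where the next, F3D31, had 40.2%, and the highest share with a clear loss. Over the 59654 CpG sites of the F3-generation, there were 647 (1.08%) in F3C30, 1849 (3.10%) in F3C9, 421 (0.706%) in F3D1, 854 (1.43%) in F3D31 and 557 (0.934%) in F3D7. Since an animal read more deeply shows fewer such sites by sampling, the share was also computed for each animal thinned to 20 reads per CpG site, with 4 or more unmethylated. It was then 2.05% in C14, 11.4% in C8, 5.28% in D10, 6.75% in D11 and 5.23% in D13, and 3.26% in F3C30, 6.29% in F3C9, 3.12% in F3D1, 3.67% in F3D31 and 2.84% in F3D7. The order of C14, the decitabine treated animals and C8 was kept.

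**Figure D2:**
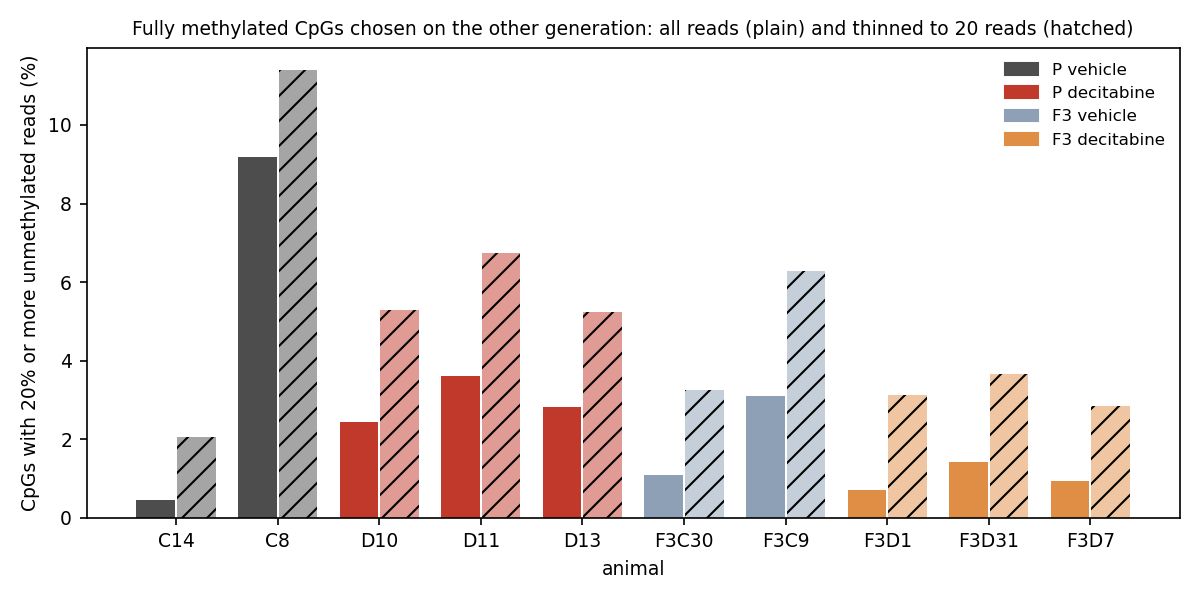
Share of fully methylated CpG sites, selected on the vehicle-control animals of the other generation, with 20% or more unmethylated reads in each animal, from all reads (plain bars) and after thinning to 20 reads (hatched bars). C8 is highest with 9.17%, and the 3 decitabine treated animals (2.45 to 3.61%) lie between C14 (0.447%) and C8.

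Most CpG sites with a clear loss had it in a single animal. Among the 55179 CpG sites and the 6 decitabine animals, which did not choose them, 51397 (93.1%) had no clear loss in any of the 6 and 3330 (6.03%) in a single animal. Of these single losses, 2676 were in a treated animal and 654 in an F3 animal. These counts use all reads, and the median depth ran from 35 reads in D13 to 84 in F3D1. All 3 treated animals had a clear loss at 37 CpG sites and all 3 descendants at 1, and 0 CpG sites had it in all 6. The losses of D10 were followed into its descendants. At the 867 CpG sites with a clear loss in D10, the level was 6.78% in F3D1 and 6.59% in F3D31, its descendants, and 6.33% in F3D7, which descends from D11. All were above the levels of these animals at the remaining sites, by 3.38, 3.28 and 3.19 percentage points. At the 1413 CpG sites with a clear loss in D11 the rise was 2.63 percentage points in its descendant F3D7, and 2.71 and 2.67 in F3D1 and F3D31. The sites that had lost methylation in a treated animal were therefore less methylated than the rest both in its own descendants and in descendants of another treated animal, and whether these rises differ was not tested.

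Neighbouring sites lost methylation together more often than others, although reads can cover both. For neighbours up to 50 bases apart, selected on the other generation, the second site had a clear loss in 14.3% of pairs in D10 when the first had one, and in 1.70% otherwise. The corresponding values were 16.3% and 2.40% in D11, 11.2% and 2.23% in D13, 4.84% and 0.385% in C14 and 18.95% and 6.99% in C8. Over 11200 CpG sites with at least 10 reads per strand in all animals, the mean levels of the strands of the P-generation animals differed most in D11, with 4.93% (plus) and 5.05% (minus). This difference was not tested. A clear loss on the plus strand was seen on the minus strand too at 68 of 480 CpG sites (14.2%) in D11, where the minus strand had one at 4.38% of the remaining sites. In C8 it was seen at 138 of 1086 (12.7%), against 9.13% of the remaining sites.

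The treated animals were compared with the decitabine descendants over the 55179 CpG sites, a comparison added after the data had been seen and in which neither side chose the sites. The mean level was 4.14% ± 0.31 (SD, n = 3) in the treated animals and 3.33% ± 0.13 (SD, n = 3) in the descendants. All 3 treated animals were above all 3 descendants, and the means were 0.802 percentage points apart (two-sided exact permutation test, p = 0.1, the smallest p that 3 against 3 animals can give). This test takes the animals as independent, although F3D1 and F3D31 descend from D10 and F3D7 from D11. Within lineages, D10 was 0.752 percentage points above the mean of F3D1 and F3D31, and D11 1.24 above F3D7. In percentage points the difference was wider where the control methylation was lower, and the levels of both groups were higher there too. It was 1.71 percentage points at the 28938 CpG sites with 90 to 95% methylated vehicle reads, where the means were 8.04% and 6.33%. At the 25824 CpG sites with 80 to 90% it was 3.56, with means of 15.7% and 12.1%. A stronger effect relative to the level was not tested. At the 407923 CpG sites with at most 5% methylated vehicle reads, the unmethylated percentage was 99.2% in the treated animals and 99.1% in the descendants, and the groups overlapped. Within the fully methylated sites, the sites nearest to full methylation had the same order: at 98 to 100% methylated vehicle reads, D10, D11 and D13 had 3.15%, 3.40% and 2.94%, and F3D1, F3D31 and F3D7 had 2.64%, 2.58% and 2.45%. The generations also differ in treatment, ancestry and the time the animals lived, which cannot be told apart here.

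**Figure D3:**
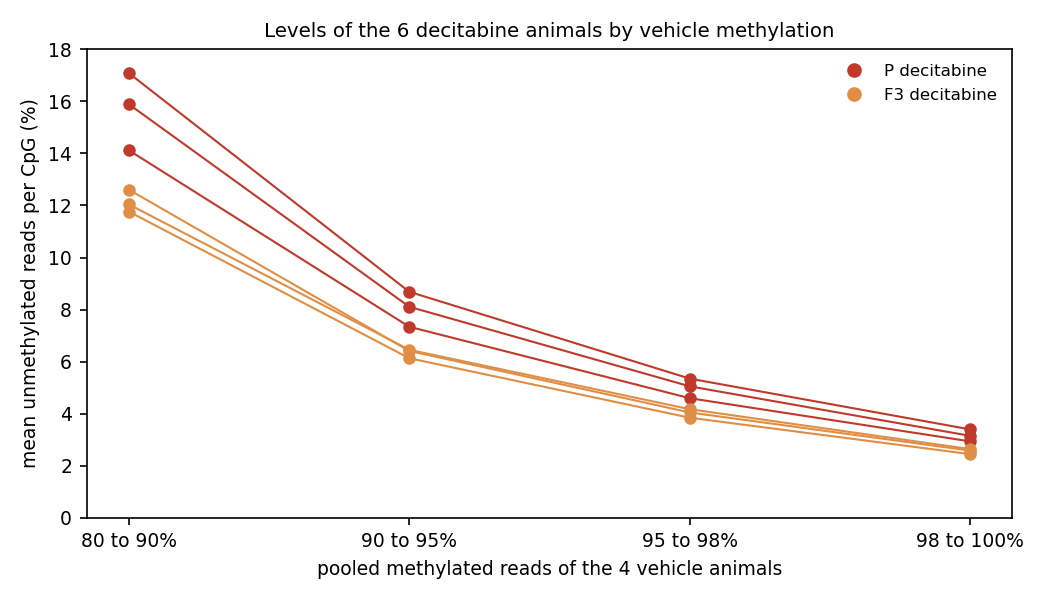
Mean unmethylated percentage of the 6 decitabine animals against the pooled methylation of the 4 vehicle-control animals at the same CpG sites. The 3 treated animals lie above the 3 descendants in each class plotted, from 80 to 90% up to 98 to 100%, with means of 15.7% and 12.1% in the class at 80 to 90%.

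Differences at single CpG sites were tested with a logistic model of methylated and unmethylated reads per CpG site, the group term being tested by likelihood ratio, with Benjamini-Hochberg q-values over all 628550 CpG sites. A site was called at a q-value under 0.01 and a pooled difference of at least 25 percentage points. This model has no term for the spread between animals of a group. Of the 57274 CpG sites selected on the F3 vehicle-control animals, 20 (0.0349%) were called lower in the decitabine treated animals, in 17 clusters of sites within 1000 bases, against 0.269% of all tested CpG sites. Another 67 (0.117%) were called higher, against 0.221% of all. At 66 of these 67, C8 was the lower of the 2 control animals, with a median methylation of 38.5% where C14 had 91.4%, and without C8 the count was 5. Of the 59654 CpG sites selected on the P vehicle-control animals, 1 was called lower in the decitabine descendants, against 0.0426% of all, and 9 higher, against 0.0848% of all. F3C9 was the lower control animal at all 9. With a term for overdispersion in an F test, 0 CpG sites were called in either direction in either generation. With so few animals this F test could hardly reach the q-value threshold over 628550 CpG sites. Its count of 0 therefore does not decide whether the calls above hold. An unadjusted p under 0.05 in the F test was found at 1080 of the P sites (1.89%) and 1396 of the F3 sites (2.34%), against 1.12% and 1.24% of all tested CpG sites.

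Counted without a threshold on size, all 3 decitabine treated animals were below both control animals at 5063 (8.84%) of the fully methylated CpG sites, where 4.94% of all tested CpG sites were, and above both at 2401 (4.19%), against 3.26% of all. In the F3-generation all 3 descendants were below both control animals at 4535 (7.60%), against 4.4% of all, and above both at 4768 (7.99%), against 5.13% of all. Of all tested CpG sites, 64.9% had at most 5% methylated vehicle reads.

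At the 20 CpG sites called lower, D13 was the lowest treated animal at 13, D11 at 5 and D10 at 2, and all 3 treated animals were below both control animals at 19. The site that missed this was intergenic, at position 81557348 of chromosome 10, with 64.1% in D10, 96.3% in D11 and 53.8% in D13 against 96.9% in C14 and 96.2% in C8. In the other direction, all 3 treated animals were above both control animals at 33 of the 67 sites called higher. The share with such separation over all called CpG sites was not counted. P1 to P10 represent the 10 clusters with the largest decrease among the called sites with all 3 treated animals below both control animals. Of these, 5 lay in coding exons, 3 in introns and 2 between genes, at least 2101 bases from the nearest transcript start, and 6 of the 10 were in an MspI site.

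P1, at position 4919210 of chromosome 7, lay in a coding exon of Zfp628, which encodes a zinc-finger protein. It was methylated in 89.4% of 47 reads in C14 and all 35 reads in C8, and in 65.2% of 23 reads in D10, 58.3% of 36 in D11 and 48.3% of 29 in D13. The pooled methylation decreased by 37.1 percentage points (likelihood-ratio test, q = 3.7e-06). P3, at position 5008608 of the same chromosome, lay in a coding exon of Fiz1, a zinc-finger gene named for its binding to the receptor Flt3, and 3 CpG sites of this cluster were called. It was methylated in 93.3% of 75 reads in C14 and all 107 in C8, and in 76.6% of 64 in D10, 64.0% of 50 in D11 and 44.1% of 59 in D13, and the pooled value decreased by 35.4 percentage points (q = 1.41e-14). The control and treated animals did not overlap at either site, which was a condition of the choice of P1 to P10. At P3 the 95% Wilson interval of C14 (85.3 to 97.1%) and that of D10 (64.9 to 85.3%) did not overlap but nearly touched, and these intervals cover counting error only.

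P7, at position 95328983 of chromosome 8 in a coding exon of the zinc-finger gene Zfp319, was the most deeply read of the 10. Its methylation was 96.2% of 105 reads in C14 and 96.1% of 127 in C8, and 63.6% of 88 in D10, 72.2% of 79 in D11 and 56.3% of 48 in D13 (q = 3.2e-14). Here the Wilson intervals of C8 (91.1 to 98.3%) and D11 (61.4 to 80.8%), the nearest animals of the 2 groups, were separate. P6, an intergenic CpG at position 28425287 of chromosome 2, had 97.2% in C14, 100.0% in C8, 73.5% in D10, 60.5% in D11 and 65.7% in D13 (q = 4.34e-05). In the F3-generation, whose control animals chose the site with 100.0% each, F3D1, F3D31 and F3D7 had 83.3% each. P2, in an intron of Relch on chromosome 1, fell to 42.9% in D10, 70.4% in D11 and 48.0% in D13 from 84.6% of 26 reads in C14 and all 20 in C8 (q = 0.000883).

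The remaining clusters were P4 in a coding exon of the kinase gene Pskh1, P5 in a coding exon of Bahcc1, P8 in an intron shared by the secreted factor Angptl2 and the exchange factor Ralgps1, P9 in an intron of the nuclear receptor gene Nr1h2 and P10 between genes on chromosome 9. Their pooled differences lay between -27.6 percentage points at P10 and -35.0 at P4. At P8 most of the decrease was in D11, with 35.7%, where D10 had 71.4% and D13 72.4%. At P10 D13 had 86.1%, close to C14 with 86.4%. Without C8, 4 of the 10 sites were still called, and without D11 7 of 10. In the F3-generation, the decitabine descendants were at 77.0% or more at P1 to P10.

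**Figure D4:**
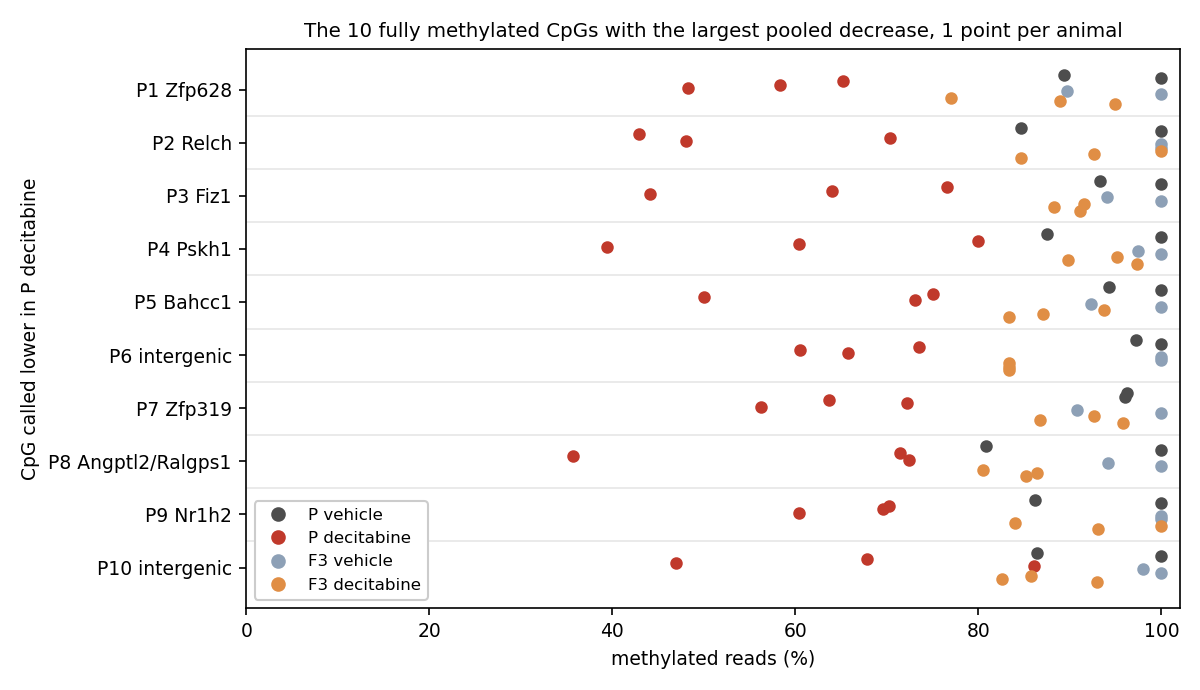
Methylated percentage of each of the 10 animals at P1 to P10, the CpG sites with the largest decrease among those fully methylated in the F3 vehicle-control animals, called lower in the decitabine treated animals and separated between groups. At each site the 3 treated animals (red) lie below both P control animals (dark grey), as the choice required. The F3 vehicle-control animals (blue grey) chose the sites.

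The only CpG site called lower in the decitabine descendants lay in an intron of Npas2, a gene of the circadian clock, at position 39338570 of chromosome 1. It had 65.3% in F3D1, 95.45% in F3D31 and 53.3% in F3D7, against 100.0% in F3C30 and 90.2% in F3C9. F3D31 was above F3C9, so that the groups overlapped.

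Over genes with at least 20 fully methylated CpG sites selected on the other generation, the mean level was higher after decitabine in 128 of 206 genes in the P-generation, and in 78 of 207 in the F3-generation. The same animals gave every gene, so the genes are not independent of each other. Over all selected sites the P difference was 0.389 and the F3 difference -0.216 percentage points. The former changed sign without C14, the latter without F3C9. The largest differences in the P-generation were 3.97 percentage points in Lef1, a transcription factor of Wnt signalling, 3.48 in Galnt10, which starts O-linked glycosylation, and 3.31 in Macrod2, which was 2.12 when F3C9 was left out of the choice. Over the 25 CpG sites in Lef1 the level was 4.36% in C14, 2.53% in C8, 6.43% in D10, 13.2% in D11 and 2.62% in D13, so that it rested on D11: it was 1.08 percentage points without D11 and 6.37 without D13. In Galnt10, with 26 CpG sites, C14 and C8 had 3.64% and 5.00%, below D10, D11 and D13 with 6.65%, 7.17% and 9.58%. In the F3-generation the largest differences were 2.12 percentage points in Camk2b, a calcium-dependent kinase, 1.89 in Nkain2 and 1.71 in the synaptic scaffold Grip1, each with the groups apart. In Camk2b, with 29 CpG sites, F3C30 and F3C9 had 3.17% and 2.25%, below F3D1, F3D31 and F3D7 with 4.88%, 5.38% and 4.21%. The Nkain2 difference was 0.227 when C8 was left out of the choice and 1.20 without F3C9. These genes were ranked by the difference itself, which was not tested per gene. Such a ranking favours genes with the groups apart, and how many of all genes had the groups apart was not counted.

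The genes that write, read and remove DNA methylation had fully methylated CpG sites in 11 of 19 genes, 67 in all. None of those selected for a test was called in either generation. Over all sites selected for the P test 0.0349% were called lower and 0.117% higher, and for the F3 test 0.00168% and 0.0151%. At these shares a count of 0 in a list this small, or in the shorter germ-line list below, says nothing about its genes. The maintenance genes Dnmt1 and Uhrf1 held 15 and 8, and the demethylase gene Tet3 held 13. In Dnmt1 the levels were 3.43% for D10, 3.33% for D11, 1.02% for D13, 4.15% in F3D1, 1.52% in F3D31 and 2.32% in F3D7. Of the 65 sites selected for the P-generation test and the 72 for the F3 test, 0 were called by the likelihood-ratio test or by the F test, and 12 of the 65 were lower and 8 higher at an unadjusted p under 0.05 in the likelihood-ratio test. Over all 57274 CpG sites selected for the P test 18.5% were lower and 11.2% higher at that p, and over the 59654 for the F3 test 14.1% and 13.1%. The median difference in methylation over the 65 was -0.668 percentage points, against -0.807 over all 57274. Over the 72 it was 0.0892 against -0.150, with 5 lower and 6 higher at an unadjusted p under 0.05. Germ-line and pluripotency genes had such sites in 3 of 18 genes, Piwil4 and Dmrt1 with 4 each and Tdrd1 with 1. Over the 4 CpG sites of Piwil4, a piRNA pathway gene, the level was 14.99% in D10 and 11.8% in D13, and 1.74% in D11. Of the 11 and 10 sites selected for the P and F3 tests, 0 were called by either test, 3 and 2 were lower and 1 each higher at an unadjusted p under 0.05, and the median differences were -0.560 and -2.71 percentage points. The 7 listed genes of paternally methylated imprinted loci had 222 tested CpG sites within their annotated bodies and none of the 55179. Most of these tested sites were in Igf2 (97), Zdbf2 (67) and Dlk1 (34), and few were at H19 (1), Meg3 (2) and Gpr1 (4). Control regions outside the gene bodies were not counted, so their methylation is not described by this. A single CpG in Rasgrf1 was selected on the P vehicle-control animals and was not called, with 25.6% unmethylated in F3C9 and at most 1.92% in the other F3 animals.

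The level differed between sequence classes in the 6 decitabine animals that did not choose the sites. The classes also differed in the share of tested CpG sites that passed the vehicle threshold, with 16.9% in CCGG and 4.90% outside. It was 36.1% with 1 to 3 CpGs in 202 bases and 0.134% with 16 or more. C14, which helped choose the sites, also had a higher level outside CCGG (3.33%) than inside (2.34%). The sign tests below cannot separate the part of the choice from that of sequence context. CpG sites outside CCGG were less methylated than those in CCGG: the unmethylated percentage was 4.94%, 5.11% and 4.70% outside in D10, D11 and D13, against 3.68%, 4.02% and 3.28% inside. F3D1, F3D31 and F3D7 had 4.32%, 4.11% and 3.99% outside and 2.93%, 2.91% and 2.70% inside. The difference was 1.28 ± 0.12 percentage points (SD, n = 6) and had the same sign in 6 of 6 animals (exact permutation test by sign, two-sided, p = 0.0313, and 0.0625 after Benjamini-Hochberg adjustment over 10 such comparisons). These tests take the 6 animals as independent, although the 3 descendants come from D10 and D11. The CpG sites with 1 to 3 CpGs in 202 bases were lower than those with 4 to 6 in 6 of 6 animals, with a mean difference of -0.295 percentage points, and the 469 with 16 or more were higher in 6 of 6, by 0.605 (p = 0.0313 and adjusted p = 0.0625 in the exact permutation test for both). Soft-masked repeats were higher than other sequence in 4 of 6 animals and by 0.0248 percentage points on average (exact permutation test by sign, p = 0.969). The mean difference of coding exons from introns was -0.0452 percentage points, with coding exons higher in 1 of 6 animals (exact permutation test, p = 0.344). Intergenic sites were higher than those in introns in 5 of 6 animals, by 0.201 on average (exact permutation test, p = 0.0625, adjusted p = 0.104). Sites within 500 bases of a transcript start were higher than those beyond 10000 bases in 6 of 6 animals, by 0.241 percentage points (exact permutation test, p = 0.0313, adjusted p = 0.0625), and higher by 0.141 than those of the class that ends at 10000 bases, also in 6 of 6 animals and with the same p.

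**Figure D5:**
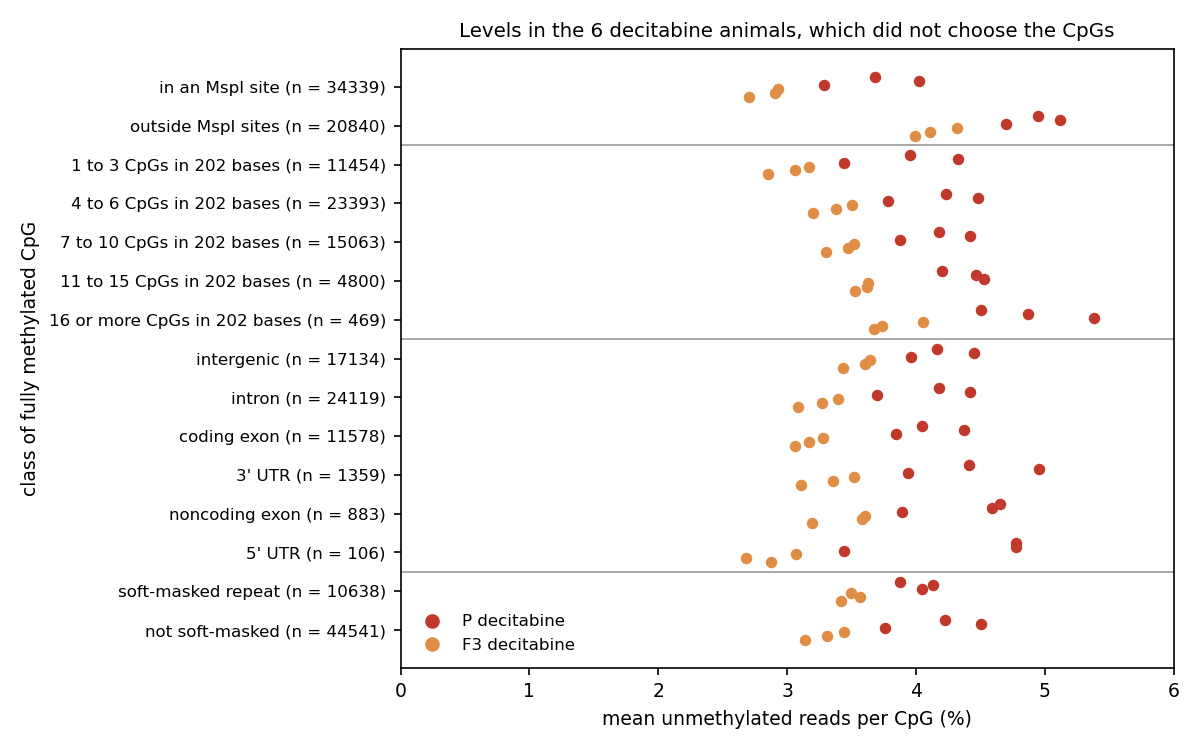
Mean unmethylated percentage of the 6 decitabine animals, 1 point per animal, in classes of fully methylated CpG sites, with the number of sites in each class. Sites outside the MspI recognition site lie above those inside it in every animal, with 3.99 to 5.11% against 2.70 to 4.02%.

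Some sites showed no loss at all. At 455 CpG sites (0.825%) none of the 10 animals had an unmethylated read, and 432 of these lay in CCGG. The 5 with the most reads had between 717 and 763. The intergenic CpG of site 1, at position 59766701 of chromosome 15, was methylated in all 763 reads, with 37 to 133 reads per animal, which allows an unmethylated percentage of up to 0.393% in counting error only. Site 2 lay in an intron of the mitochondrial carrier gene Slc25a26 (745 reads) and site 5 in an intron of Rgs20, a regulator of G-protein signalling (717 reads). The other two of the 5 lay between genes on chromosome 9 and in a coding exon of the splicing gene Scaf11. In the 4 vehicle-control animals together, 5723 CpG sites had no unmethylated read. At these D10, D11 and D13 had 2.40%, 2.53% and 2.19% unmethylated, and F3D1, F3D31 and F3D7 had 1.98%, 1.91% and 1.84%, values that the choice on vehicle reads raises relative to the vehicle-control animals.

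Fully methylated CpG sites formed 35889 runs, a run being neighbouring tested sites at most 100 bases apart with no site below the threshold between them. Of these runs, 23668 were a single CpG and 606 held 5 or more. The longest held 12 CpG sites, among them a run in coding exons of Sec1, a fucosyltransferase gene on chromosome 7, and another in Bahcc1 on chromosome 11, followed by 11 in the 3′ UTR of Lrrc58 and 10 in a coding exon of the kinase gene Dyrk3. Run 1 in Sec1 had 1.55% in D10, 1.64% in D11 and 2.53% in D13, and 3.92% in F3D1, 1.25% in F3D31 and 2.88% in F3D7. Run 5 in Dyrk3 had 1.803%, 4.33% and 3.23% in the treated animals and 1.94%, 2.98% and 1.33% in the descendants. The animal with the highest level differed between these runs, F3D1 in Sec1 and D11 in Dyrk3. The run in Lrrc58 begins 20 bases before the start of Gm15725, an annotated processed pseudogene, so its reads may be shared with a near-identical copy and are uncertain. Bahcc1 held both a run and the called CpG site P5.

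The total number of reads over CpG cytosines was between 48903817 in D13 and 115158278 in F3D1. As a check of the labelled cell type, promoters of maternally methylated imprinted genes, which are unmethylated in spermatozoa and methylated on the maternal allele in somatic cells, were read in 11 of 15 listed genes, of which Peg10 and Sgce share a promoter. The median methylated percentage over these genes was 6.63% in C14 and 15.1% in C8, 11.1% in D10, 20.3% in D11 and 9.66% in D13. In the F3-generation it was 7.16% in F3C30 and 10.0% in F3C9, 10.98% in F3D1, 8.96% in F3D31 and 10.6% in F3D7. Grb10 and Inpp5f were under 2% in every animal, and Peg10 was at 0 in C8 and F3C30. C8 and D11, the animals with the highest medians, also had the highest unmethylated levels at fully methylated CpG sites selected on the other generation, and the part of somatic cells in these levels was not tested.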

How the data were processed

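Per the labels and the methods of the study, reads were demultiplexed with CASAVA 1.8.2, trimmed with Trim Galore 0.3.3 and cutadapt 1.1 and mapped with Bismark 0.10.1 to mm10. For each animal the authors deposited the count of methylated and of unmethylated reads at each CpG cytosine, with strands separate, unfiltered and not normalized. The methylated and unmethylated count stand in a single field, split here. All 2617727 cytosine positions on chromosomes 1 to 19 and X were CpGs in GRCm38.

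Strands were summed and CpG sites with 20 or more reads in all 10 animals were kept. Genes and transcript starts came from GENCODE for GRCm38. The members and gene lists were chosen with earlier results of these data known. Genes and sites were named by rules: the 10 clusters called lower with the largest decrease and with separated groups, the 10 genes with the most members, the 5 longest runs, the 5 sites without an unmethylated read with the most reads, 3 gene lists, and the 3 genes per generation with the largest rise. Some items that these rules name are not reported here. The scripts were tested on simulated data for the P comparison, with 207274 CpG sites in the fit. Of 100 CpG sites with a decrease of 30 percentage points 84 were called, of 100 with 50 all, and 1 of 207074 unchanged. The simulated animals of a group shared 1 level per CpG site, without spread between animals. These shares are therefore not error rates for the real animals, which do have such a spread. Computations used samtools 1.23.1, pysam 0.24.0, numpy 2.4.6, pandas 2.3.3, scipy 1.17.1 and matplotlib 3.10.9 under Python 3.11.15. The comparisons of treated animals with descendants and of sequence classes, and the counts called higher, were chosen after seeing the data. Other levels, coverage minimums, weights, tests and left-out animals were tried as alternatives.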

Additional observations from a re-analysis of the deposited data

How the results depend on the processing

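The limits are few animals, a control spread as wide as the differences, and reads without molecular identifiers. The number of fully methylated CpG sites was 84117 at a level of 90%, 25857 at 98%, 104042 at a minimum of 10 reads, 10743 at 40 reads and 25206 with each control animal at 95%, and 54695 to 57500 with a control animal left out. P sites called lower numbered 76, 7, 70, 3 and 8 under these 5 settings, 679 at a difference of 10 percentage points and 0 with the overdispersion term, and 20 to 65 with an animal left out (57 without C14, 60 without D10, 39 without D11, 45 without D13, 65 without F3C30, 38 without F3C9). F3 sites called lower numbered 2, 0, 10, 0 and 0, 140 at 10 points, 0 with overdispersion and 0 to 11 with an animal left out. P sites called higher, a count added after seeing the data, numbered 162, 23, 243, 1 and 38, 999 at 10 points, 0 with overdispersion and 5 to 1840 with an animal left out, the highest without C14. F3 sites called higher, also added, numbered 27, 4, 82 and 0 under the first 4, 592 at 10 points, 0 with overdispersion and 9 to 261 with an animal left out. The level differences kept their sign under all settings other than leaving out an animal. Leaving one out, the P difference lay between -0.292 and 1.07 percentage points on held-out sites and on sites selected on the other generation, and the F3 difference between -0.460 and 0.0282 on both. The difference between treated animals and descendants lay between 0.654 and 0.962. Why the counts moved was not tested. The test with the overdispersion term could hardly reach the q-value threshold with so few animals, so its counts of 0 decide nothing. Paired by lineage, an alternative added after seeing the data, the treated animals were 0.998 percentage points above their own descendants on average (exact permutation test by sign over 2 lineages, p = 0.5, the smallest it can give). For vehicle against decitabine no paired analysis was possible because the animals of a generation carry no shared numbers.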
